A study of Homo sapiens with 4 samples.

Results

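The 37 genes of the human mitochondrial genome were examined in 4 RNA sequencing libraries of HEK293A, a cell line established from human embryonic kidney. Members were all rows whose Ensembl identifier lies on the mitochondrial chromosome in GENCODE release 29, 37 of the 58736 features listed. They comprise 13 mRNA genes, 2 rRNA genes and 22 tRNA genes. The cells of 2 libraries received the DNA probe NT1_hp2 (replicates 2 and 3), and those of the other 2 were labelled negative control (replicates 1 and 3). All wells, controls included, had received 1 µg of plasmid encoding FEN1, the nuclease that trims DNA flaps, 48 h before 500 pmol of DNA probes. The labels describe an interest in gene regulation by FEN1 with hairpin probes. They name neither the target of NT1_hp2 nor the control probe. They do not say that replicates were separate cultures, and p-values may therefore reflect technical spread alone.

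Human mitochondrial DNA is a small circle that encodes subunits of the respiratory chain and of ATP synthase, together with the rRNAs and tRNAs that translate them. It is transcribed from promoters in the non-coding control region into long precursors of each strand, and tRNAs that lie between the other genes are cut out of them, which releases the mRNAs and rRNAs. Most genes belong to the transcript made from the heavy-strand promoter, here 28 genes counted from MT-TF. The light-strand transcript holds 9, counted from MT-TP, namely MT-ND6 and 8 tRNAs. Strand here is that of the annotation. The library kit does not mark strand, so a read of a light-strand gene cannot be told apart from one of heavy-strand precursor lying antisense to it.

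The libraries held 13694161 and 13647890 reads in NT1_hp2 and 14972373 and 12557001 reads in the negative control, as recovered from the deposited FPKM values. The epithelial keratins KRT8 and KRT18 and the intermediate filament gene VIM were between 54.4 and 112 FPKM in every library, whereas the kidney and epithelial markers PAX2, PAX8, CDH1 and EPCAM stayed under 1 FPKM. Of the 3 markers that could be tested KRT18 fell, with 54.4 and 55.4 FPKM in NT1_hp2 and 77.7 and 68.8 FPKM in the negative control. Of 5 markers of other cell types, the leukocyte gene PTPRC was listed at 0 in all 4 libraries, and ALB, COL1A2 and PECAM1 were at most 0.104 FPKM. The collagen gene COL1A1 stood at 7.85 and 7.90 FPKM in NT1_hp2 and 8.29 and 8.44 FPKM in the negative control and did not pass.

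Sequences are shown for the tRNA genes that carried most tRNA reads (MT-TN, MT-TC, MT-TY and MT-TP) and for the gene with the largest fall (MT-TL2). They are the GENCODE 29 transcripts on GRCh38, written 5′ to 3′ with T for U. Capitals mark the anticodon, found as the middle of a loop of 7 bases closed by the best-paired stem of up to 5 pairs. In 20 of the 22 tRNA genes the codon it reads matched the amino acid in the gene's name. MT-TN lies at 5657 to 5729, MT-TC at 5761 to 5826, MT-TY at 5826 to 5891, MT-TP at 15956 to 16023 (all light strand) and MT-TL2 at 12266 to 12336 (heavy strand). The last base of MT-TY is the first base of MT-TC.
MT-TN: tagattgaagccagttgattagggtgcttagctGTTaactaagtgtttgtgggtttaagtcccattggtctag
MT-TC: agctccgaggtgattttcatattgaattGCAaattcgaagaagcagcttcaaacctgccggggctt
MT-TY: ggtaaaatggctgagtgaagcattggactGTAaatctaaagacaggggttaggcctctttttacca
MT-TP: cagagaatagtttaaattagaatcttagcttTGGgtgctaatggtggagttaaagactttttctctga
MT-TL2: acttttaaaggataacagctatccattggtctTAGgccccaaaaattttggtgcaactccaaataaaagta

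Mitochondrial transcripts fell in NT1_hp2 cells across all 3 classes, most in tRNA genes and least in MT-RNR1, the small ribosomal subunit RNA. The whole genome took 4.32% and 4.28% of reads in NT1_hp2 and 6.03% and 5.89% in the negative control. Of 36 members tested, 28 were lower and 0 higher (limma-trend on log2 of FPKM + 1, called at a p under 0.05 after Benjamini-Hochberg adjustment over every tested feature). Among all 16362 features tested, 8.92% were lower and 5% higher. With limma-voom on the recovered reads, 30 members were lower and 0 higher, against a background of 20.4% lower. Without MT-TA and MT-TK, which reached the minimum level only in the negative control, 26 of 34 were lower with limma-trend and 29 with limma-voom. These 34 still hold MT-TL2, MT-TF, MT-TS1 and MT-TM, which reached it in both control libraries but not in both NT1_hp2 libraries. The remaining gene, MT-TQ, had 1 read in all and was not tested. The median log2 fold change was −1.24 over the tested members, −1.01 over those without MT-TA and MT-TK, and −0.0075 over all tested features. In 33 members both NT1_hp2 libraries lay below both control libraries, as did 34.8% of tested features.

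The calls depended on single libraries. With the same features tested, without either control library or without NT1_hp2 replicate 2 no member passed, and without NT1_hp2 replicate 3 only MT-TL2 did, and those fits called 0 or 1 of all features. With the filter on low values recomputed on the 3 libraries left, an alternative added after seeing the data, 24 of 33 members were lower when control replicate 3 was omitted and 0 when control replicate 1 was. Omitting NT1_hp2 replicate 2 then left 4, and omitting replicate 3 left 8. With the same features tested, between 27 and 34 members had an unadjusted p under 0.05 in limma-trend, and 34 or 35 of 36 kept a negative fold change. In a bulk library, fewer cells of a kind rich in mitochondrial RNA and less mitochondrial RNA per cell cannot be told apart.

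The rRNAs, which form the mitochondrial ribosome, separated from each other. MT-RNR1 (648 to 1601) stood at 7353 and 7227 FPKM in NT1_hp2 and at 8314 and 8112 FPKM in the negative control. Its groups did not overlap, but its log2 fold change of −0.17 (SE 0.083) did not pass (limma adjusted p = 0.203), although limma-voom called it (adjusted p = 0.0468). MT-RNR2 (1671 to 3229), the large subunit RNA, had 5805 and 5568 FPKM in NT1_hp2 against 8317 and 8001 FPKM in the negative control, a log2 fold change of −0.52 (SE 0.086, limma adjusted p = 0.0353). The ratio of MT-RNR1 to MT-RNR2 FPKM, which does not depend on scaling to nuclear genes, was 1.27 and 1.30 in NT1_hp2 and 0.9997 and 1.01 in the negative control. Both genes belong to the promoter-near end of the heavy-strand transcript, with only MT-TV between them. There were 0.624 and 0.611 rRNA reads per mRNA read in NT1_hp2 and 0.501 and 0.525 in the negative control.

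**Figure D1:**
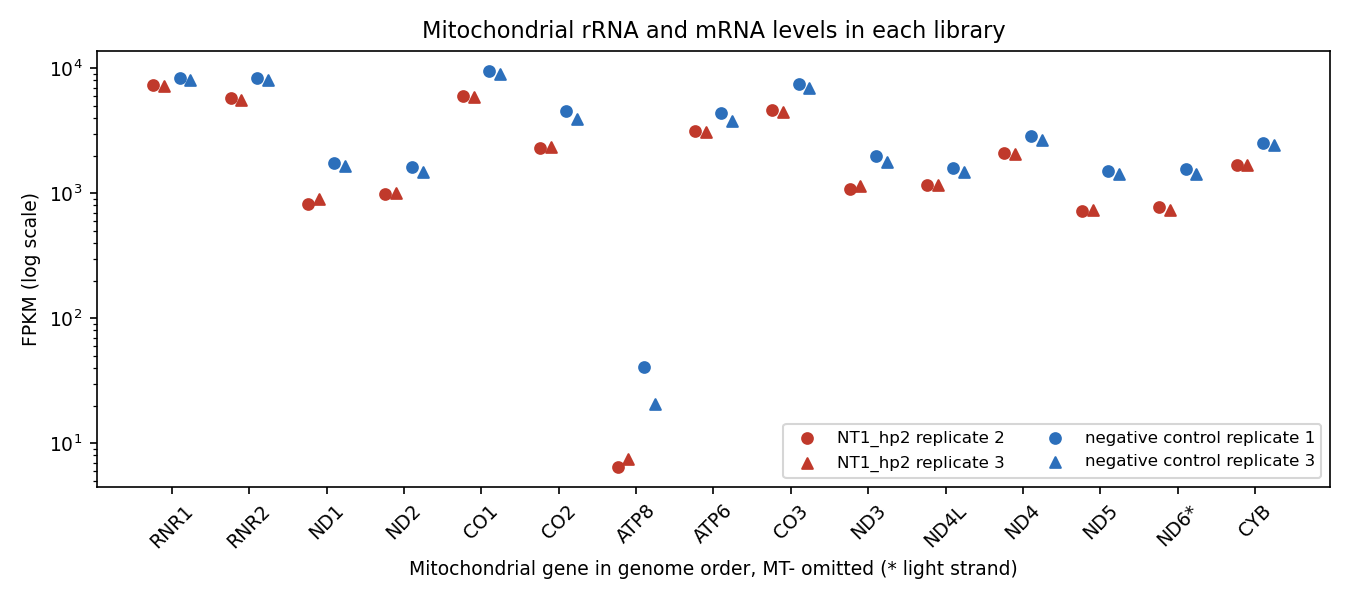
FPKM of the 2 rRNA and 13 mRNA genes on a log axis in each library, in genome order, with an asterisk on the light-strand gene. NT1_hp2 libraries are in red and negative control libraries in blue. Both NT1_hp2 points lie below both control points in each of the 15 genes, as in 34.8% of all tested features. MT-ATP8 lies far below the rest.

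All 13 mRNAs had lower values in both NT1_hp2 libraries, and 12 passed, with a median log2 fold change of −0.66. Among all tested features, 34.8% lay lower in both NT1_hp2 libraries and 8.92% were called lower. Among the complex I subunits, which form NADH dehydrogenase, MT-ND5, MT-ND1 and MT-ND6 fell most. MT-ND5 (12337 to 14148) had 719 and 730 FPKM in NT1_hp2 and 1508 and 1430 FPKM in the negative control, a log2 fold change of −1.02 (SE 0.080, limma adjusted p = 0.0340). MT-ND1 (3307 to 4262) had 829 and 908 FPKM in NT1_hp2 and 1760 and 1639 FPKM in controls (log2 fold change −0.97). These are the genes that follow the MT-TH to MT-TL2 cluster and the rRNA block, with mean FPKM in NT1_hp2 at 0.493 of control for MT-ND5 and 0.511 for MT-ND1. The mRNAs after other groups of tRNA genes fell less. MT-ND2 (after MT-TM) and MT-CO1 (after MT-TY) were at −0.64, and MT-CO2 (after MT-TD) at −0.85.

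MT-ND6, the light-strand mRNA (14149 to 14673), had 782 and 739 FPKM in NT1_hp2 and 1551 and 1417 FPKM in the negative control (log2 fold change −0.96, SE 0.090). Its level per length stayed close to that of MT-ND5, its convergent neighbour on the other strand. The MT-ND6 to MT-ND5 ratio was 1.09 and 1.01 in NT1_hp2 and 1.03 and 0.991 in controls, so the groups overlapped. The complex I genes MT-ND2 and MT-ND3 fell by 0.64 and 0.75 on the log2 scale. MT-ND2 had 986 and 1003 FPKM in NT1_hp2 and 1634 and 1477 FPKM in controls, and MT-ND3 had 1092 and 1137 FPKM in NT1_hp2 and 1998 and 1764 FPKM in controls.

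The smallest falls among mRNAs were in MT-ATP6, MT-ND4L and MT-ND4. In human mitochondria MT-ND4L and MT-ND4 share a bicistronic transcript, as MT-ATP8 and MT-ATP6 do. MT-ND4L had 1162 and 1175 FPKM in NT1_hp2 and 1595 and 1484 FPKM in controls, and MT-ND4 had 2105 and 2072 FPKM in NT1_hp2 and 2872 and 2673 FPKM in controls. Their log2 fold changes were nearly equal, −0.40 and −0.41 (SE 0.084 and 0.086, limma adjusted p = 0.0452 and 0.0449). They overlap by 7 bases. MT-ATP6, an ATP synthase subunit, had 3137 and 3090 FPKM in NT1_hp2 and 4369 and 3816 FPKM in controls, a log2 fold change of −0.39 (SE 0.101). It missed the threshold (limma adjusted p = 0.0628) and passed with limma-voom, upper-quartile factors and library totals.

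MT-ATP8, the small ATP synthase subunit, had the largest fall of the 13 mRNAs, at 6.50 and 7.49 FPKM in NT1_hp2 and 40.9 and 20.8 FPKM in controls (log2 fold change −1.92, SE 0.33, limma adjusted p = 0.0416). It rested on 19 and 22 reads in NT1_hp2 and 122 and 54 reads in controls. The control libraries thus differed from each other more than the NT1_hp2 libraries did. MT-ATP8 held 0.630 and 0.737 reads per 1000 reads of MT-ATP6 in NT1_hp2 and 2.85 and 1.65 in controls. These shares are far from even, and how reads were divided between the overlapping genes is not given. The shared stretch of 46 bases at 8527 to 8572 is 22.2% of MT-ATP8 and is shown because it is where the assignment is uncertain, with the start codon of MT-ATP6 and the stop codon of MT-ATP8 in capitals.
Shared bases: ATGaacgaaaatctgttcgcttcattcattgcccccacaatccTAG

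Among cytochrome c oxidase (complex IV) mRNAs, MT-CO1 and MT-CO3 had the highest mRNA levels per length in all 4 libraries. MT-CO1 (5904 to 7445) had 6029 and 5913 FPKM in NT1_hp2 and 9591 and 8999 FPKM in controls (log2 fold change −0.64, SE 0.087, limma adjusted p = 0.0340). MT-CO3 followed it closely, with 4625 and 4486 FPKM in NT1_hp2 and 7491 and 6895 FPKM in controls (−0.66), and the ratio of MT-CO3 to MT-CO1 overlapped between groups (0.767 and 0.759 in NT1_hp2, 0.781 and 0.766 in controls). MT-CO2 fell further, with 2319.5 and 2349 FPKM in NT1_hp2 and 4538 and 3906 FPKM in controls (−0.85). MT-CYB, the complex III subunit cytochrome b and the last heavy-strand mRNA, had 1699 and 1693 FPKM in NT1_hp2 and 2517 and 2443 FPKM in controls (−0.55).

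Within the mitochondrial mRNA pool the composition therefore shifted, independently of scaling to nuclear genes. MT-ATP6 made up 12.3% and 12.2% of summed mRNA FPKM in NT1_hp2 and 10.5% and 10.1% in controls, and MT-ND4 8.26% and 8.19% in NT1_hp2 and 6.93% and 7.04% in controls. MT-ND5 made up 2.82% and 2.89% in NT1_hp2 and 3.64% and 3.77% in controls. MT-ND4L and MT-CYB also took larger shares in both NT1_hp2 libraries, MT-ND1, MT-CO2, MT-ND3, MT-ND6 and MT-ATP8 took smaller ones, and the groups overlapped for MT-CO1, MT-CO3 and MT-ND2. The ratio of MT-ND5 to MT-ND4 FPKM, adjacent genes parted by 3 tRNA genes, was 0.342 and 0.353 in NT1_hp2 and 0.525 and 0.535 in controls. Similarly, MT-ND2 over MT-ND1 was 1.19 and 1.10 in NT1_hp2 and 0.929 and 0.901 in controls. With 2 libraries against 2, the exact two-sided permutation test of a ratio cannot go below p = 0.333, the value it gave for 17 of the 19 ratios and shares computed (0.373 after Benjamini-Hochberg adjustment).

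Distance was compared with the falls on the heavy strand. Across 11 heavy-strand mRNAs without MT-ATP8, Spearman's rho between the distance from MT-TF and the log2 fold change was 0.209, and these genes share the same libraries and precursor. With both rRNAs added (13 genes) rho was −0.148, so its sign depended on the set of genes. MT-CYB, the mRNA farthest from MT-TF at 14170 bases, fell less than MT-ND1 at 2730 bases, and MT-ND4 at 10183 bases fell less than MT-ND5 at 11760 bases. On the light strand no correlation was computed. There the 3 tested genes within 1350 bases of MT-TP (MT-TP, MT-TE and MT-ND6) had log2 fold changes of −0.86, −1.81 and −0.96. The 5 at 8509 to 10368 bases (MT-TS1, MT-TY, MT-TC, MT-TN and MT-TA) lay between −2.66 and −2.11, and all of these are tRNA genes. Among them MT-TA had no read in NT1_hp2 and passed the filter through the control libraries only, so its value is not a measured fold. MT-TS1 rested on 2 reads in NT1_hp2 and 17 in controls and was not called by limma-trend, nor was MT-TE.

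**Figure D2:**
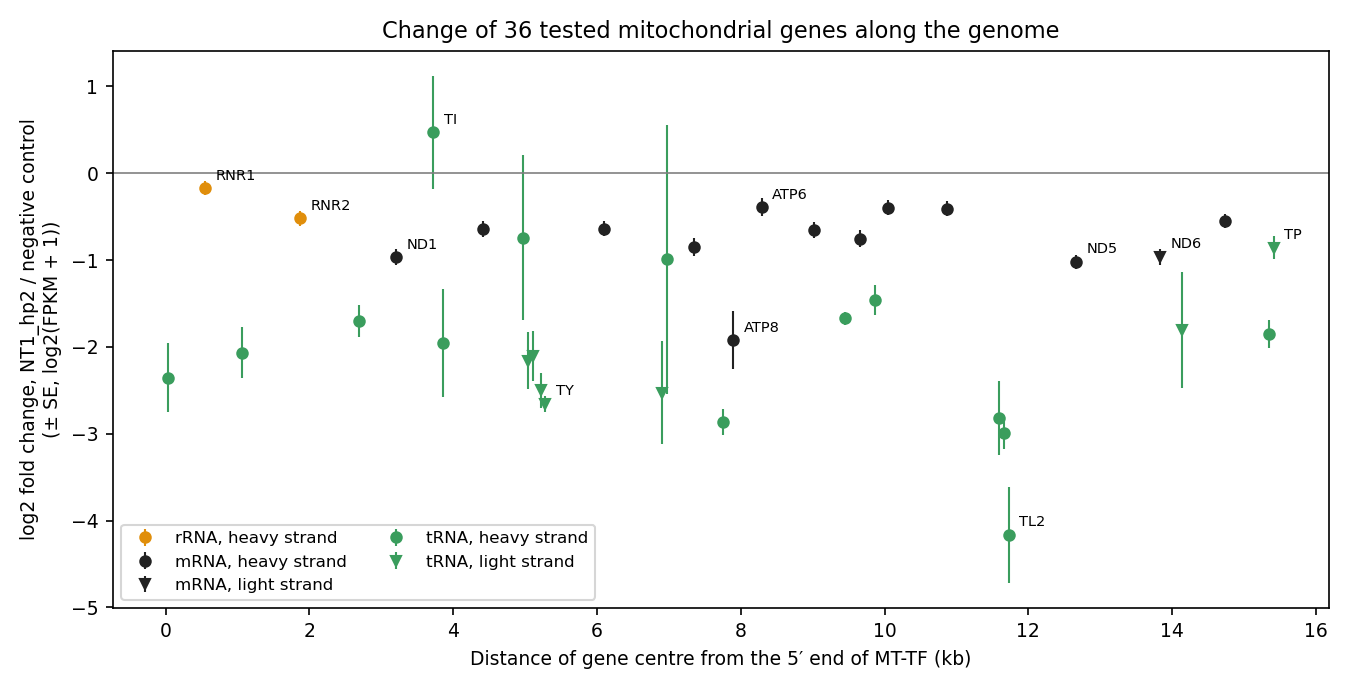
Log2 fold change (NT1_hp2 over negative control, ± SE of the limma-trend fit) of the 36 tested members against the distance of the gene centre from the 5′ end of MT-TF in kb, coloured by class and shaped by strand. The mRNAs and rRNAs lie between −1.02 and −0.17 apart from MT-ATP8 at −1.92, and most tRNA genes lie lower, down to −4.16 for MT-TL2.

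Transfer RNA genes fell more than the mRNAs cut from the same precursors. All 22 together held 621 and 751 reads in NT1_hp2 and 2488 and 2232 reads in the negative control. That is 1.71 and 2.07 tRNA reads per 1000 mRNA reads in NT1_hp2 and 4.15 and 4.61 in controls, without overlap. Of 21 tested, 15 were lower with limma-trend, and 15 with limma-voom, which called MT-TS1 and not MT-TA. Over all tested features the shares called lower were 8.92% and 20.4%. Without MT-TA and MT-TK these were 13 and 14 of 19. These 19 still hold MT-TL2, MT-TF, MT-TS1 and MT-TM, which reached the minimum in both control libraries but not in both NT1_hp2 libraries. Over the 21 genes the median log2 fold change was −2.07 (−1.96 with the genes at 0 reads in NT1_hp2 set to their bound, and −1.96 without MT-TA and MT-TK). The files do not show whether these reads come from mature tRNA, from uncut precursor or from antisense RNA.

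Depth limits this class. A gene of 70 bases needs 3.01 to 3.41 FPKM for 3 reads, apart from control replicate 1 at 2.98, so the minimum of 1 FPKM lets genes with a read per library into the test, and 10 of the 22 had under 40 reads in all. In simulated data limma-trend called unchanged features more often than its threshold allows, and all such calls were in features of at most 1000 bases, while limma-voom, which weights by read count, made few of them there. The limma-trend calls of tRNA genes with few reads are thus treated as less secure than their p-values state, and read counts are given beside them. The simulation drew nuclear features only, with the same dispersion for all. It therefore does not measure the error of either tool in these tRNA genes. Of the 12 with 40 or more, 11 passed, beside 8.92% of all tested features called lower, and MT-TE was the exception. This split sums the 4 libraries, so control reads alone could carry a gene over it. That was so for MT-TL2, which had 0 and 2 reads in NT1_hp2 and 34 and 24 in controls and gave the lowest ratio. For these 12 the ratio of pooled reads, NT1_hp2 over control and scaled by the deposited library size, was 0.0328 to 0.552, and the upper bound of its 95% exact binomial interval was below 1 in all 12. It was 0.492 to 0.757 for the 12 mRNAs other than MT-ATP8. Intervals cover counting error only, and the share of all tested features with an upper bound below 1 was not computed.

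Light-strand tRNA genes dominated the reads. MT-TC (cysteine) had 113 and 170 reads in NT1_hp2 and 816 and 687 reads in controls, which is 121 and 181 FPKM in NT1_hp2 and 859 and 829 FPKM in controls. Its log2 fold change was −2.50 (SE 0.201, limma adjusted p = 0.0340). MT-TY (tyrosine), which shares a base with it, had 37 reads in each NT1_hp2 library and 261 and 196 reads in controls, a log2 fold change of −2.66 (SE 0.095, limma adjusted p = 0.0205). MT-TN (asparagine) had 79 and 142 reads in NT1_hp2 and 466 and 409 reads in controls. Its log2 fold change was −2.11 (SE 0.29, limma adjusted p = 0.0340). These genes flank the 31 bases between MT-TN and MT-TC, which in textbooks hold the origin of light-strand replication.

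MT-TP (proline), the first light-strand gene from the promoter, fell least among the abundant tRNA genes. It had 287 and 285 reads in NT1_hp2 and 465 and 522 reads in controls, a log2 fold change of −0.86 (SE 0.137, limma adjusted p = 0.0353). The ratio of MT-TP to its neighbour MT-TT (threonine, heavy strand) was 28.7 and 20.4 in NT1_hp2 and 10.6 and 12.4 in controls. MT-TN, MT-TC, MT-TY and MT-TP together held 83.1% and 84.4% of tRNA reads in NT1_hp2 and 80.7% and 81.3% in controls. All 4 lie beside unannotated bases, as do MT-TF and MT-TK, and these 6 genes held 81.7% of control tRNA reads. The other 16 abut annotated genes within 10 bases. The pooled read ratio was 0.285 in the 6 and 0.242 in the 16.

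The heavy-strand cluster of MT-TH, MT-TS2 and MT-TL2 (histidine, serine and leucine) between MT-ND4 and MT-ND5 had the lowest read ratio of 5 groups of neighbouring tRNA genes. Together these 3 genes had 14 and 8 reads in NT1_hp2 and 121 and 86 reads in controls, a read ratio of 0.101 (95% exact binomial interval 0.0621 to 0.157). The 5 genes from MT-TW to MT-TY had a ratio of 0.194 (0.177 to 0.212), and MT-TT with MT-TP one of 0.529 (0.478 to 0.585). MT-TS1 with MT-TD had 0.149 (0.0452 to 0.385), an interval that holds the value of the lowest cluster, and the 3 genes from MT-TI to MT-TM had 0.529 (0.218 to 1.21). These intervals pool the reads of a group and leave out the spread between replicates. MT-TL2 alone had 0 and 2 reads in NT1_hp2 and 34 and 24 reads in controls. MT-TH had 13 and 5 reads in NT1_hp2 and 70 and 52 reads in controls, and MT-TS2 had 1 read in each NT1_hp2 library and 17 and 10 reads in controls. Leaving out an NT1_hp2 library moved the fold changes of these low genes, for MT-TH to −3.43 without replicate 2 and −2.20 without replicate 3, and for MT-TL2 to −3.37 and −4.95.

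MT-TL1, MT-TG, MT-TR and MT-TT, also on the heavy strand, had read ratios of 0.302, 0.306, 0.341 and 0.266. MT-TL1 (leucine), which follows MT-RNR2, had 32 and 39 reads in NT1_hp2 and 101 and 123 reads in controls (log2 fold change −1.70, SE 0.189, limma adjusted p = 0.0340). MT-TG (glycine), between MT-CO3 and MT-ND3, had 21 and 23 reads in NT1_hp2 and 71 and 66 reads in controls (−1.67). MT-TR (arginine) had 8 and 11 reads in NT1_hp2 and 31 and 22 reads in controls (−1.46). In these and in MT-TT, with 10 and 14 reads in NT1_hp2 and 44 and 42 reads in controls, the groups were apart. So were they, with NT1_hp2 lower, in 34.8% of all tested features.

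In the rRNA block, MT-TF (phenylalanine) had 2 and 1 reads in NT1_hp2 and 17 and 7 reads in controls, a read ratio of 0.119 (95% exact binomial interval 0.0229 to 0.392). MT-TV (valine), between the rRNAs, had 5 and 9 reads in NT1_hp2 and 37 and 24 reads in controls (log2 fold change −2.07). Both passed. MT-TV thus stood at 0.219 of its control reads while MT-RNR1 and MT-RNR2 on either side stood at 0.887 and 0.696.

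MT-TK (lysine) and MT-TA (alanine) had no read in NT1_hp2. The control libraries together held 12 reads of MT-TK and 7 of MT-TA. At the limit that a count of 0 allows (3 reads over the group), MT-TK was 4.20-fold lower and MT-TA 2.45-fold lower. Those limits take the few control reads as exact. With counting error in both groups, the 95% exact binomial interval of the read ratio reached up to 0.343 for MT-TK and 0.661 for MT-TA. These 2 passed the filter through the control libraries only, so they had to differ, and limma-voom did not call MT-TA (adjusted p = 0.0697). MT-TL2, MT-TF, MT-TS1 and MT-TM reached the minimum in both control libraries but not in both NT1_hp2 libraries. They could thus pass the filter on the control libraries alone but not on the NT1_hp2 libraries alone. MT-TE, MT-TM, MT-TS1, MT-TD and MT-TW did not pass. The first 3 had groups that did not overlap, with 9 reads in NT1_hp2 against 33 in controls for MT-TE. Both NT1_hp2 libraries also lay below both control libraries in 34.8% of all tested features. MT-TI (isoleucine) was the gene with a positive value, with 9 reads in NT1_hp2 and 7 in controls, a ratio of 1.22 (95% exact binomial interval 0.406 to 3.87).

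**Figure D3:**
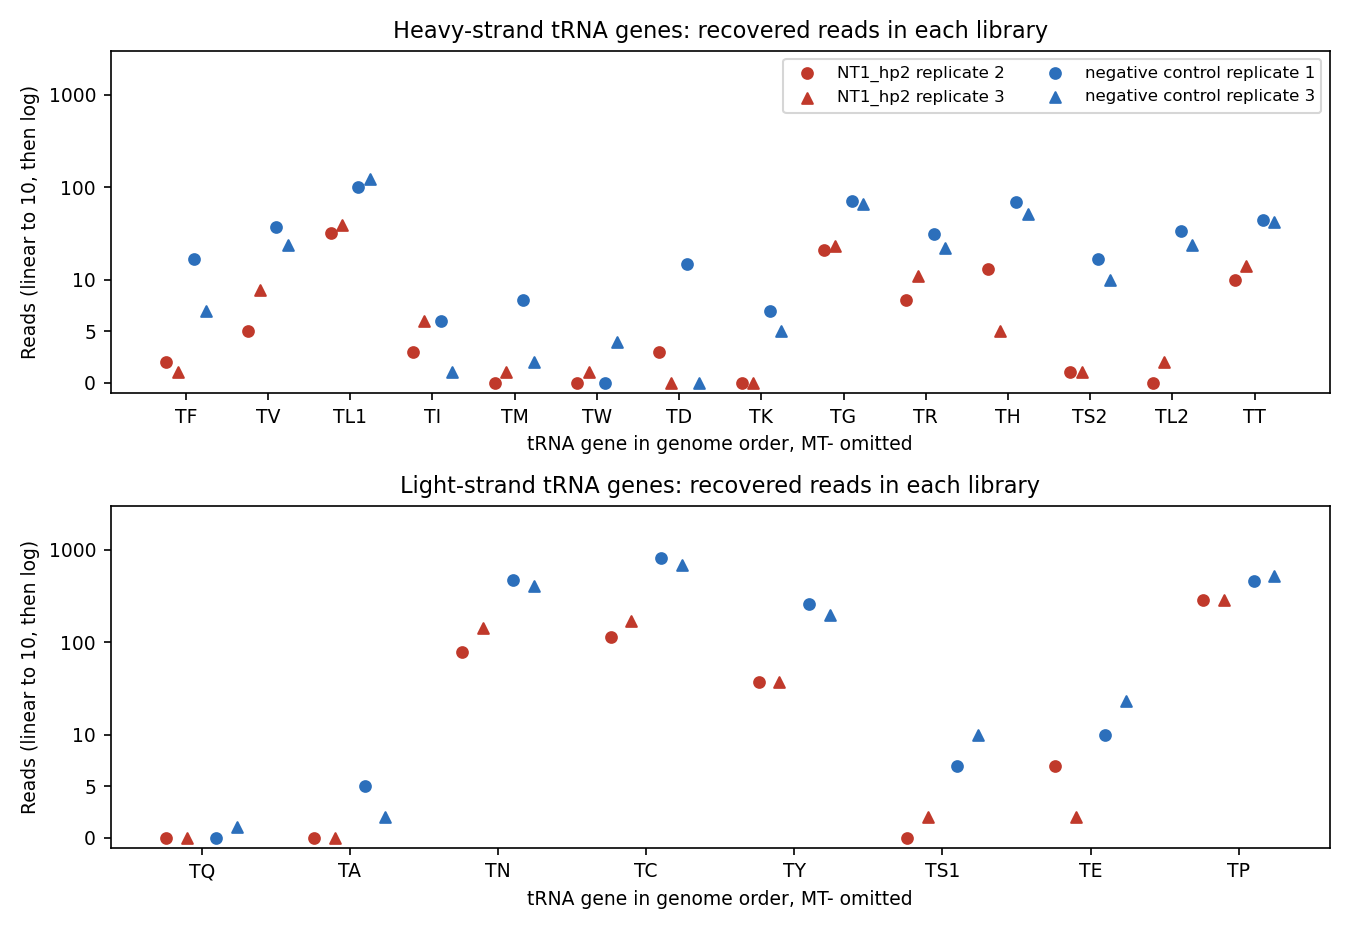
Recovered reads of the 14 heavy-strand (top) and 8 light-strand (bottom) tRNA genes in each library, in genome order, on an axis that is linear to 10 and logarithmic above. NT1_hp2 libraries are in red and negative control libraries in blue. MT-TN, MT-TC, MT-TY and MT-TP carry most reads. The red points lie below the blue ones in 18 of the 22 genes, beside 34.8% of all tested features.

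By strand, the light-strand share of mRNA and tRNA reads was 1.74% and 1.69% in NT1_hp2 and 2.28% and 2.30% in controls. MT-ND6 alone made up 1.60% and 1.52% of mRNA reads in NT1_hp2 and 1.95% and 1.93% in controls. Among tRNA reads alone the light-strand share went the other way, at 84.2% and 85.0% in NT1_hp2 and 81.6% and 82.9% in controls. By gene, 22 of 28 tested heavy-strand members and 6 of 8 light-strand members were lower by limma-trend, beside 8.92% of all tested features. Their median log2 fold changes were −0.98 and −2.13. Within tRNA genes those medians were −1.90 on the heavy strand and −2.16 on the light strand. These counts and medians hold MT-TK (heavy) and MT-TA (light), which passed the filter through the control libraries only, and −2.16 is the value of MT-TA itself. With both set to their bound, the light-strand medians were −1.96 over members and −2.11 over tRNA genes. The heavy-strand medians did not change.

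**Figure D4:**
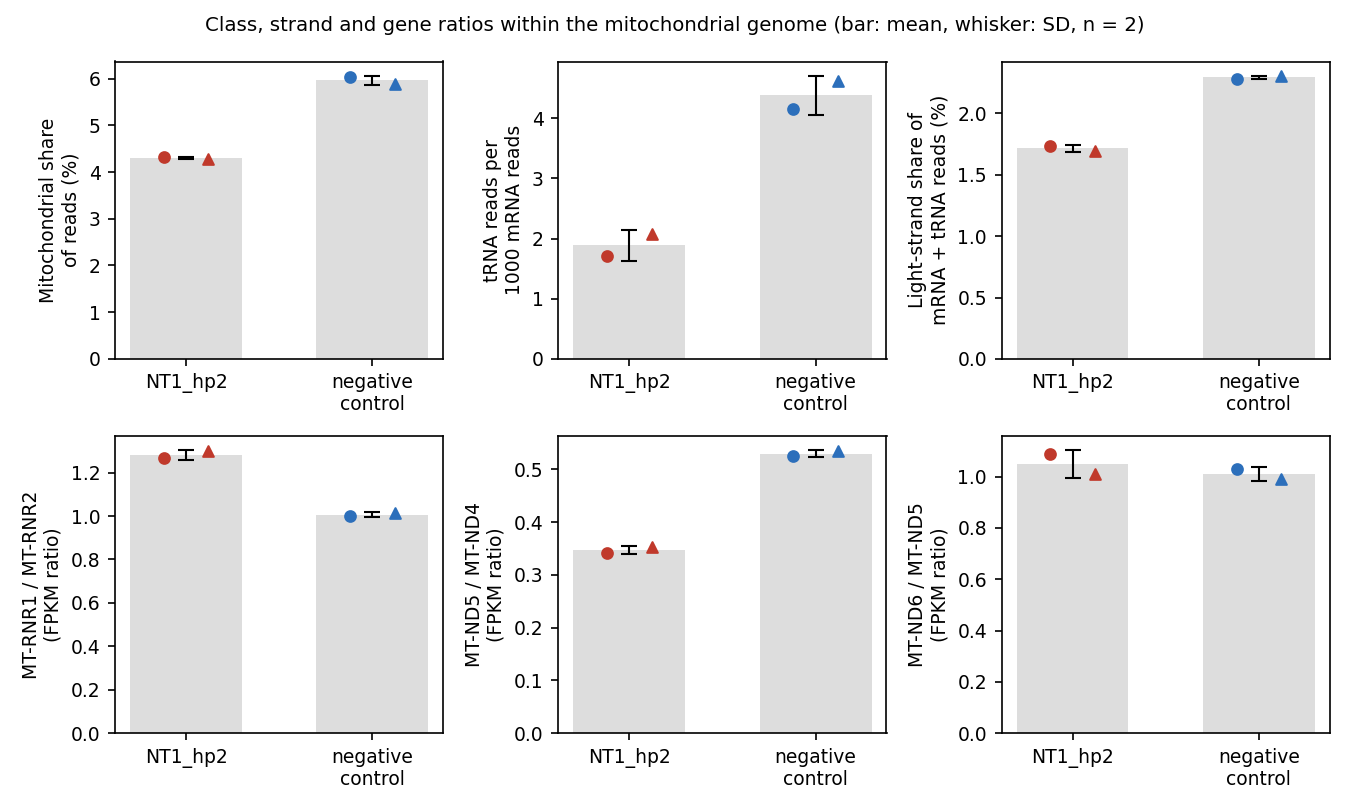
Shares and ratios within the mitochondrial genome in each library (circles, NT1_hp2 replicate 2 and negative control replicate 1; triangles, replicate 3), with the mean as a bar and the SD as a whisker (n = 2 per group), all axes from 0. The groups are apart in 5 of the 6 panels, and overlap for the MT-ND6 to MT-ND5 ratio.

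Nuclear features as short as the tRNA genes mostly did not fall. Of 345 tested nuclear features of at most 100 bases, 8 were lower and 30 higher, with a median log2 fold change of 0.21. Together they held 2246 and 2221 reads in NT1_hp2 and 1800 and 1784 reads in controls. Of the 37 with at least 40 reads, 3 were lower and 6 higher (median 0.20). None of the 345 had as many reads as MT-TP, and 186 of them were miRNA and 39 snoRNA features. At the lengths of mRNAs, nuclear features of 300 to 1000 bases had a median of 0.064 (84 of 1797 lower). Those of 1000 to 3000 bases had a median of −0.14 (497 of 3358 lower). Length classes thus differed between the groups, and the part of length in the mRNA and tRNA falls was not tested.

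**Figure D5:**
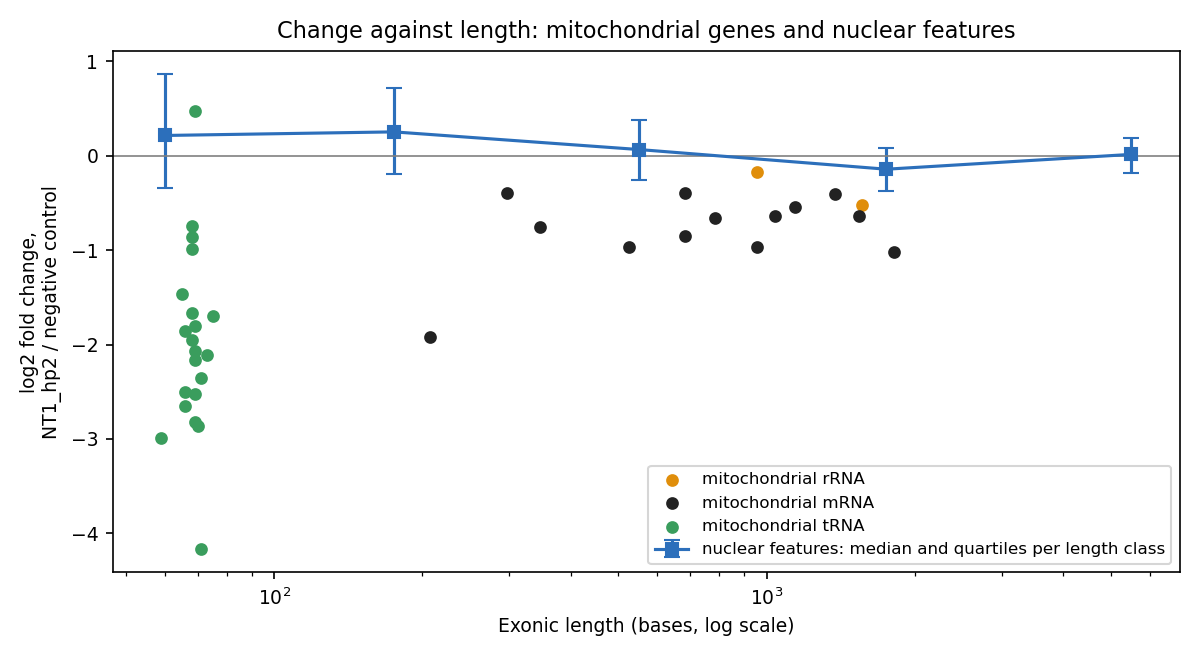
Log2 fold change (NT1_hp2 over negative control) of tested mitochondrial genes against exonic length in bases on a log axis, with the median and quartiles of nuclear features in 5 length classes as blue squares. Nuclear features of at most 100 bases have a median of 0.21, and mitochondrial tRNA genes of 59 to 75 bases have a median of −2.07.

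Nuclear copies of mitochondrial genes limit how exactly the reads can be placed. Of 407 annotated copies 9 were tested, and the 3 most abundant lie close together on chromosome 1. MTATP6P1 (633696 to 634376) is identical to MT-ATP6 at 98.5% of aligned bases and had 3324 and 3235 reads in NT1_hp2 and 4875 and 3734 reads in controls. That is 110 and 108 reads per 1000 MT-ATP6 reads in NT1_hp2 and 114 in each control library. MTND2P28 (629640 to 630683, 98.4% identical to MT-ND2) had 1225 and 1106 reads in NT1_hp2 and 1731 and 1429 in controls, and MTCO1P12 (631074 to 632616, 98.6% identical to MT-CO1) 211 and 158 in NT1_hp2 and 513 and 356 in controls. All 3 fell, with log2 fold changes of −0.45, −0.50 and −1.21 (limma adjusted p = 0.0450, 0.0362 and 0.0340). MTND2P28 had 84.4 and 74.6 reads per 1000 MT-ND2 reads in NT1_hp2 and 70.6 and 73.9 in controls. MTCO1P12 had 1.61 and 1.22 reads per 1000 MT-CO1 reads in NT1_hp2 and 2.41 and 2.04 in controls. Whether reads were exchanged between copies and mitochondrial genes was not tested, and the levels of both are uncertain by any such reads. The fourth, MTRNR2L2, had 10 and 4 reads in NT1_hp2 and 1 read in each control library, and did not pass.

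Of 46 tested genes for nuclear-encoded factors that make, process, stabilise or replicate the mitochondrial genome and its RNA, 6 were lower and 1 higher by limma-trend. That is 13% and 2.17%, beside 8.92% and 5% of all tested features. By limma-voom 16 were lower and 6 higher, or 34.8% and 13%, beside 20.4% and 14.4%. Of 10 mitochondrial transcription factors 1 rose and 1 fell by limma-trend, and 1 rose and 3 fell by limma-voom. TEFM, the elongation factor, rose to 5.67 and 5.18 FPKM in NT1_hp2, against 3.71 and 4.05 FPKM in controls (log2 fold change 0.40, SE 0.089, limma adjusted p = 0.0494). MRPL12, a ribosomal protein that also binds the polymerase, fell to 8.13 and 7.61 FPKM in NT1_hp2, against 22.2 and 14.3 FPKM in controls. The polymerase gene POLRMT (10.4 and 11.2 FPKM in NT1_hp2, 13.8 and 12.9 in controls), TFAM (21.6 and 22.3 in NT1_hp2, 20.5 and 19.4 in controls) and TFB2M (2.15 and 1.60 in NT1_hp2, 2.03 and 1.81 in controls) did not pass, though limma-voom called POLRMT.

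Of 18 tested RNA processing genes, 3 fell and 0 rose by limma-trend, and 7 fell and 1 rose by limma-voom. ELAC2, the nuclease that cuts the 3′ end of mitochondrial tRNAs, had 8.01 and 8.39 FPKM in NT1_hp2 and 11.3 and 10.5 FPKM in controls (log2 fold change −0.38, SE 0.072, limma adjusted p = 0.0412). FASTK and TBRG4, members of the FASTK family of mitochondrial RNA-binding proteins, were at −0.57 and −0.31. Of 6 stability and decay genes limma-trend called the nuclease gene ENDOG, at −0.46, and limma-voom called 2 lower and 2 higher. Of 12 mtDNA replication genes limma-trend called the topoisomerase gene TOP1MT, at −0.65, and limma-voom called 4 lower and 2 higher. The lists' medians were −0.033, −0.12, 0.18 and −0.079, beside −0.0075 over all tested features.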

How the data were processed

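RNA levels of HEK293A cells were measured in 4 libraries (2 per group). The authors deposited 1 table per library, with values taken as FPKM because value times GENCODE 29 exon length fell on whole multiples of a common step (within 0.01) for 100% of values above 0. The step gave the reads behind each value, with EGFP taken as 720 bases long. Per the submitters' processing notes the build is GRCh38.p12; neither labels nor headers name an aligner, a counter or a scaling. The implied library size was 0.962 to 1.04 times the read total. Features reaching 1 FPKM in 2 or more libraries were compared on log2(FPKM + 1), which understates changes of low genes, with limma 3.58.1 (trend, robust) in R 4.3.3. P-values were Benjamini-Hochberg adjusted over all tested features and called under 0.05. Tested on simulated reads of nuclear features with the same dispersion for all, limma-trend recovered most changed genes but called too many unchanged features of at most 1000 bases. It was kept as the main test for FPKM values, and limma-voom counts are given beside the counts over members, tRNA genes and factor lists. Alternatives were other scalings (median-of-ratios, upper quartile, totals with and without mitochondrial reads), limma-voom with trimmed-mean (TMM) factors, other filters, a pseudocount of 0.1 and omission of each library. That omission was first run with the filter recomputed on 3 libraries, and was changed to the filter of all 4 after the counts were seen; both are given. Ratios within the genome used exact permutation tests (scipy 1.17.1), and copies were aligned with Biopython 1.88. Replicates differed by more than sampling noise (chi-square per degree of freedom 2.69 for NT1_hp2 and 5.68 for the negative control). Over mitochondrial genes these values were 8.21 and 16.45. Each library therefore counted once in the fits and permutation tests. The read ratios with binomial intervals pooled the reads of a group, so those intervals leave out this spread and are too narrow. All 37 members and their copies, and the lists of nuclear factors with up to 4 called members each, were named by rule. Members and lists were chosen with earlier results of these data known. The ratios between single genes, the split at 40 reads, the length classes and the grouping of tRNA genes into clusters and by flanking bases were chosen after values were seen.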

Additional observations from a re-analysis of the deposited data

How the results depend on the processing

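The count of lower members was 28. It was 24 to 30 with the 4 other scalings, limma-voom, no robust shrinkage, protein-coding genes with members, and a pseudocount of 0.1, and 20 of 21 tested with at least 1 CPM in all 4 libraries. It was 12 with features of at least 300 bases, which leaves out all tRNA genes, MT-ATP8 and MT-ND4L, and 0 without a filter, where 31 members had an unadjusted limma-trend p under 0.05. Leaving out a library gave 0 to 1 with the same features, and 0, 4, 8 or 24 with the filter recomputed, which was chosen after seeing the data; the cause of the gap between them was not tested. In each of the 4 scalings, 35 of 36 members were negative. Over single members, the alternatives that keep all 4 libraries left 309 values on the same side of the threshold, moved 40 out of a call and 9 into one. Leaving out a library with the same features left 29 on the same side, moved 111 out of a call and turned the sign of 4. Values changed sign, without a call, when a library was left out: MT-TI ranged over −0.38 to 1.32, MT-TW over −1.99 to 0.51 and MT-TD over −3.01 to 1.02, each on few reads. The sign changed without negative control replicate 3 for MT-TI and MT-TW, and without negative control replicate 1 or NT1_hp2 replicate 3 (0.030) for MT-TD.

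The difference in mitochondrial share (NT1_hp2 minus control) was −1.67 percentage points of reads and −4.58 of summed FPKM, and −1.74 to −1.60 without a library. The log2 difference in tRNA reads per mRNA read was −1.22, −0.86 without overlapping genes (MT-TC and MT-TY among those dropped), and −1.36 to −1.08 without a library. The light-strand share differed by −0.58 percentage points, by −0.38 for mRNA alone, by 2.35 for tRNA alone and by −3.32 for summed FPKM, and by −0.60 to −0.56 without a library. No paired analysis was possible because the groups share 1 replicate number only.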
